A study of Rattus norvegicus with 18 samples.

Results

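RNA that came down with an antibody to hnRNP H1 was compared with RNA that came down with an antibody to FLAG, in axoplasm of injured rat sciatic nerve. The comparison used 6 of the 18 libraries of the study, 3 hnRNP H1 and 3 FLAG immunoprecipitations, chosen by the antibody named in their titles, and all 13416 transcript entries of the deposited count table. The animals were SD rats whose sciatic nerve had been crushed. The nerve proximal to the crush was taken 7 days later, and its axoplasm, the cytoplasm of nerve fibres, was squeezed out into isotonic buffer without detergent, cleared by centrifugation and beads, and precipitated on Protein A/G beads. FLAG is an epitope tag, and no FLAG-tagged protein is named for these rats, so that library type measures what the beads and an antibody bring down without a stated target. No genetic change is named in any group, every group shares the crush, and no uninjured nerve is among the groups. The 3 libraries of hnRNP F RIP and the 3 of unprecipitated axoplasm (Input) served as further references. The labels do not tie the libraries of a group to different rats. The p-values therefore cover only the spread between these libraries, which may be technical.

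hnRNP H1 is a nuclear and cytoplasmic RNA-binding protein of the hnRNP H/F family, which binds runs of guanines through its RNA recognition motifs. It is best known for guiding the choice of splice sites and polyadenylation sites, and hnRNP F and hnRNP H2 are its close relatives. In axons, RNA-binding proteins travel with mRNAs that are stored, transported and translated far from the cell body. A RIP library counts RNA that stayed with the antibody, directly or through other proteins, and its reads say nothing of the binding site.

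The hnRNP H1 libraries held 7467863 to 8882239 reads and the FLAG libraries 7137178 to 16754262. Levels below are counts per 1000000 reads (CPM) after TMM scaling. FLAG RIP 1 and 3, the deepest libraries, had 1601 and 1568 entries at 0 reads, against 776 in FLAG RIP 2 and 302 to 615 in the hnRNP H1 libraries. The median SD of log2(CPM + 1) was 0.86 among FLAG libraries and 0.48 among hnRNP H1 libraries. Neuronal markers were present, with 9 of 10 listed entries tested, at a summed 1954 to 2727 CPM in hnRNP H1 RIP and 724 to 957 CPM in FLAG RIP. Fibroblast markers summed to 97610 to 151100 CPM against 13860 to 22570, most of it Col1a1, while 3 of 11 entries were higher and 3 lower in the test below. Macrophage markers summed to 18940 to 27570 CPM against 4536 to 7166, most of it Gpnmb, the 1 of 10 entries that was higher, while 6 were lower (median log2 fold change -1.70). Schwann cell markers summed to 3626 to 4393 CPM against 1444 to 2079. This difference lay mostly in Pmp2, the 1 of 13 entries that was higher, while 0 were lower (median log2 fold change 0.13). Erythrocyte markers summed to 386 to 938 CPM against 5521 to 19520. RNA of several cell types was therefore in both kinds of library, and the part of these differences in the results below was not tested.

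Of 12003 entries that passed the filter on low counts, 2583 (21.5%) differed at an adjusted p under 0.05 in edgeR's quasi-likelihood test, 3 libraries against 3. In hnRNP H1 RIP 1417 entries (11.8%) were higher and 1166 (9.71%) were lower. The higher entries had a median log2 fold change of 3.09 and the lower ones of -2.47, beside -0.13 over all tested. A fitted difference of 8-fold or more was seen in 730 higher and 327 lower entries. All 77 tested entries with 0 FLAG reads were called higher. They passed the filter only through the hnRNP H1 libraries, and their fitted fold changes are no measured sizes. Among entries with 10 or more reads in every library, 980 were higher and 1048 lower. The higher entries held 63.3% to 64.5% of the reads of each hnRNP H1 library but 15.7% to 17.4% of those of each FLAG library. The lower entries held 4.45% to 4.92% of hnRNP H1 reads and 33.0% to 35.7% of FLAG reads. Scaling by total counts in place of TMM moved the median of all tested entries to -0.72 and gave 1035 higher and 2165 lower calls, so the balance between the directions depends on the scaling. Of 44 gene lists with more entries higher than lower, 23 had more lower than higher with total counts, among them chaperones, integrins, myelin proteins, Schwann cell markers, the TGF-beta and BMP pathway, G proteins with their receptors, and interferon response genes. Without hnRNP H1 RIP 1, 2 or 3 there were 1379, 1187 or 1188 calls. After the count of a gene list, square brackets give its lowest and highest numbers of calls when each of the 6 libraries in turn was left out; a share near 11.8% higher or 9.71% lower is that of all tested entries.

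**Figure D1:**
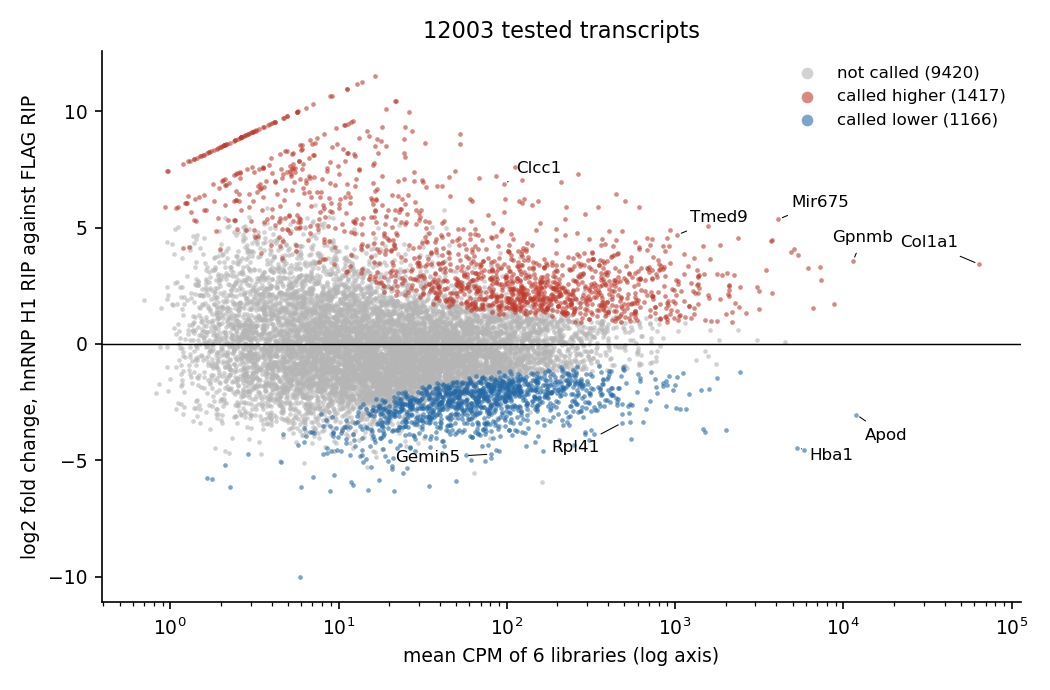
Log2 fold change of hnRNP H1 RIP against FLAG RIP (vertical) by mean CPM of the 6 libraries (horizontal, log axis) for 12003 tested entries, coloured by call, with named genes marked. The 1417 entries called higher reach the most abundant transcripts, and the diagonal band of points at the upper left is made of entries with 0 FLAG reads, whose fitted fold changes are no measured sizes.

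Small RNA genes made up the lists with the highest shares of entries called higher among lists of 5 or more tested entries. MicroRNAs are short guides of gene silencing cut from hairpin precursors, and of 12 entries named for microRNA genes 8 passed the filter, of which 7 were higher in hnRNP H1 RIP and 0 lower [4 to 9 higher and 0 lower], beside 11.8% higher among all entries. Their median log2 fold change was 8.41, or 6.24 with the 3 entries that had 0 FLAG reads set at their lower bound. Those 3, Mir199a2 with 1 FLAG read and Mir142 with 8 passed the filter only through the hnRNP H1 libraries. The filter itself thus favoured higher calls in this list, and without it 8 of 12 entries were higher and 0 lower. The entries are 84 to 435 bases long, so reads of precursors, of host transcripts and of mature strands cannot be told apart. The mature sequences that RefSeq, on the GRCr8 build, files under these 7 genes are shown to identify them. The seed (bases 2 to 8, the part that pairs with targets) is in capitals. For Mir125b1 only rno-miR-125b-1-3p is filed. Its hairpin also holds the sequence of rno-miR-125b-5p, which is filed under Mir125b2 and is not shown. The 11 sequences have 11 different seeds.
rno-miR-675-5p: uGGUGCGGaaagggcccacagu
rno-miR-675-3p: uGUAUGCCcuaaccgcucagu
rno-miR-568: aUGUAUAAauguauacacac
rno-miR-142-5p: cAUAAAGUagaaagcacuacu
rno-miR-142-3p: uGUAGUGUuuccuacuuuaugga
rno-miR-125b-1-3p: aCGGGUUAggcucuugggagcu
rno-miR-199a-5p: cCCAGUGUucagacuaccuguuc
rno-miR-199a-3p: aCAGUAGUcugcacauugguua
rno-miR-143-5p: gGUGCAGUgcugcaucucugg
rno-miR-143-3p: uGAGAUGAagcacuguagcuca
rno-miR-3074: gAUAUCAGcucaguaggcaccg

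Mir675, which lies inside the H19 long noncoding RNA, was by far the deepest of them, with 4548, 8967 and 10593 CPM in the hnRNP H1 libraries and 143, 285 and 160 CPM in the FLAG libraries. All 3 hnRNP H1 libraries lay far above all 3 FLAG libraries, and the log2 fold change was 5.36 ± 0.45 (SE, adjusted p = 0.00035). Its hairpin, at chr1:207161752-207161835 on the minus strand of GRCr8, is given here because hnRNP H proteins are known for binding guanine runs; runs of 3 or more G are in capitals.
Mir675 hairpin: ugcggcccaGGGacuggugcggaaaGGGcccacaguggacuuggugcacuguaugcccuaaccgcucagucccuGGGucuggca
The letters GGG, searched on the transcribed strand only, occur in 6 of the 7 hairpins that RefSeq gives for the 8 tested genes, and in 70.4% of all 419 rat hairpins there, which are 59 to 141 bases long. The share is therefore close to that of hairpins in general, and a match is no binding site.

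Mir142, a microRNA gene of blood cells, had 119, 72.4 and 125 CPM in hnRNP H1 RIP and 0, 0.514 and 0.154 CPM in FLAG RIP, where 8 reads were counted in all. Mir568, inside the zinc finger gene Zbtb20, had 265, 221 and 154 CPM against 15.9, 37.8 and 2.72 CPM, and its fold change was 3.51 ± 0.82 (adjusted p = 0.0157). No hnRNP H1 library of either gene fell as low as the highest FLAG library. Zbtb20 itself had 1704, 1253 and 1035 CPM against 806, 479 and 341 CPM, a smaller difference (adjusted p = 0.0327). The calls of both rested on the number of libraries: Mir568 was at an adjusted p of 0.0624 without hnRNP H1 RIP 1 and 0.0508 without hnRNP H1 RIP 2, and Zbtb20 was at 0.0614 to 0.129 without any 1 of the 3 hnRNP H1 libraries and at 0.0865 and 0.0743 without FLAG RIP 2 or 3. Mir125b1, a gene of the miR-125 family of growth regulators, had 9.11, 7.69 and 12.7 CPM and 0 reads in every FLAG library, which makes it at least 152-fold higher (against 3 reads over the FLAG group). Mir143, known from smooth muscle, and Mir3074 also had 0 FLAG reads and were at least 88.1-fold and 64.9-fold higher, but lost their calls without any 1 of the hnRNP H1 libraries (adjusted p 0.0505 to 0.0684 and 0.0502 to 0.0568). Mir199a2 had 1 FLAG read and a ratio of 442 (95% counting interval 78.4 to 17560). Mir186 was at 3.09, 6.45 and 7.31 CPM against 0.0561, 1.03 and 0 CPM and did not pass the test (adjusted p = 0.126), though it did without FLAG RIP 2 (0.0262).

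**Figure D2:**
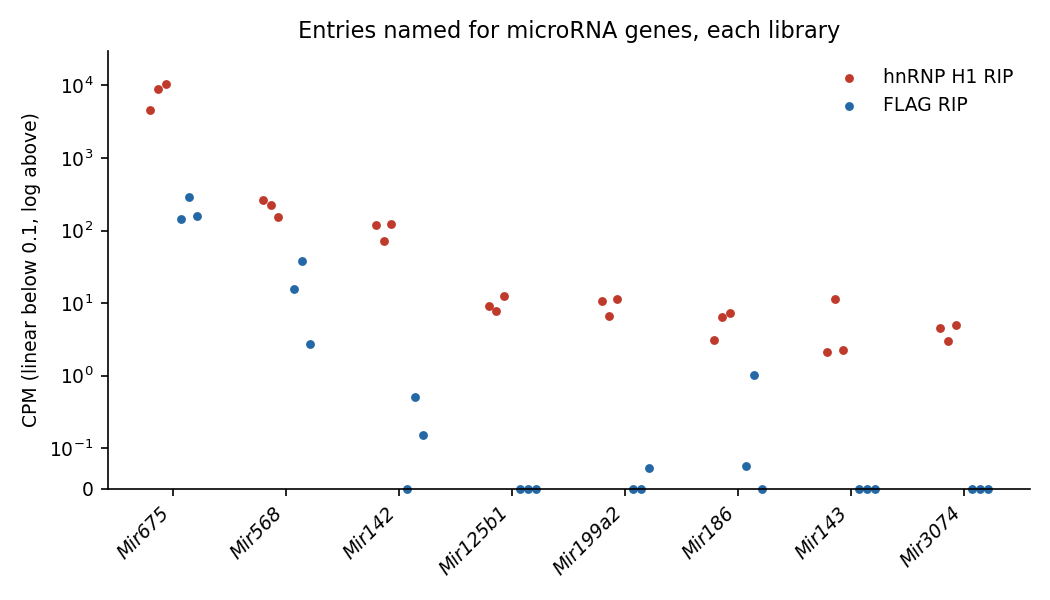
CPM in each of the 3 hnRNP H1 RIP and 3 FLAG RIP libraries (points) for the 8 tested entries named for microRNA genes, on an axis that is linear below 0.1 and logarithmic above. Every hnRNP H1 point lies above every FLAG point of the same gene, and Mir125b1, Mir143 and Mir3074 are at 0 in all FLAG libraries.

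The list of small nucleolar and spliceosomal RNAs, which guide RNA modification and build the splicing machinery, mostly followed the same direction. It also holds entries of neither class, with 16 of 7SK, 2 of Y RNA, 2 of RNase P and 1 of RNase MRP tested. Of its 165 entries deposited, 67 passed the filter, 12 of them with 0 FLAG reads and thus only through the hnRNP H1 libraries. The same holds for further entries with few FLAG reads, such as 2 of SNORA21 with 3 and 1 in all. The filter itself thus favoured higher calls in this list. Among the 67, 34 were higher and 1 was lower [15 to 58 higher and 0 to 1 lower], and without the filter 52 of 158 were higher. Among H/ACA box nucleolar RNAs 12 of 19 were higher, among U6 spliceosomal RNA entries 10 of 13, and among entries of 7SK, a regulator of transcription elongation, 8 of 16. Shares were lower for C/D box nucleolar RNAs (1 of 5), U1 (0 of 1), U2 (0 of 2) and RNase P (0 of 2). SNORA21 was at 62.1, 39.3 and 46.8 CPM in hnRNP H1 RIP with 1 read in each FLAG library, a ratio of 766 (95% counting interval 261 to 3720). Both entries of the signal recognition particle RNA, which are outside the list, were higher as well. The exception was RNase_MRP, the RNA of the ribonuclease MRP, at 1.63, 2.47 and 1.95 CPM against 56.3, 13.6 and 7.13 CPM (-3.66 ± 1.04, adjusted p = 0.034). Its call was lost without any 1 of the hnRNP H1 libraries (adjusted p 0.115 to 0.127) or FLAG RIP 1 (0.111), and FLAG RIP 1 was its highest library. U6 and 7SK entries are near-identical copies, so the values of single copies are uncertain. After entries of the same symbol were summed, 14 of 33 were higher and 1 was lower, with a median of 4.35.

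Among transcripts with at least 10 reads in every library, the 12 highest fold changes included several genes of membrane and secreted proteins, beside Mir675. Clcc1, an endoplasmic reticulum chloride channel protein, was at 262, 165 and 143 CPM in hnRNP H1 RIP and 2.02, 2.26 and 0.564 CPM in FLAG RIP (log2 fold change 6.89 ± 0.69, adjusted p = 0.000579). Fzd7, a Wnt receptor, was at 228, 250 and 266 CPM against 3.53, 5.86 and 0.615 CPM. The next were Slc16a13, a monocarboxylate carrier (6.23 ± 0.62), Cd93, an endothelial and myeloid surface protein (6.14 ± 0.94), and Dpt, the matrix protein dermatopontin (6.07 ± 0.64). For all of them the lowest hnRNP H1 library lay above the highest FLAG library, which the rule that picked them required. Over all tested entries, 24.7% had groups apart with hnRNP H1 RIP higher and 21.2% with it lower. Metrn, a secreted factor of glia and neurons, followed at 5.96 ± 0.73, and Ddx39b, an RNA helicase of splicing and export, at 5.89 ± 1.00. Sumf1, the enzyme that activates sulfatases, was at 806, 1278 and 1539 CPM against 3.48, 35 and 22.7 CPM. Adamtsl1, a matrix protein, Slc35f1, a solute carrier, and Muc6, a mucin, completed the group at 5.88, 5.60 and 5.53.

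The 12 lowest fold changes included genes of cytoskeletal, mitochondrial and nuclear proteins and of a globin. Gemin5, a subunit of the SMN complex that assembles spliceosomal particles, was at 4.23, 8.79 and 4.39 CPM in hnRNP H1 RIP and 274, 40.3 and 152 CPM in FLAG RIP (-4.74 ± 0.77, adjusted p = 0.00345). Tmsb10, an actin monomer binding thymosin, was at 1.95, 3.02 and 1.79 CPM against 31.2, 66.7 and 66.7 CPM. Cstb, a cysteine protease inhibitor, was at 6.51, 20.9 and 11.9 CPM against 228, 301 and 414 CPM. The groups did not overlap in any of these genes, as the rule that picked them required. Sgk1, a stress-induced kinase, was lower at a log2 fold change of -4.55 ± 0.56, Pcna, the replication clamp, at -4.40 ± 0.72, and Sh3bgrl3 at -4.36 ± 0.53. Cetn2, a centrin of centrioles, was at -4.32 ± 0.74 and Myl12a, a regulatory light chain of myosin, at -4.21 ± 0.53. Ctf1, a cytokine, and Ethe1, a mitochondrial sulfur dioxygenase, were at -4.67 ± 1.13 and -4.62 ± 1.07, with FLAG RIP 3 above the other FLAG libraries. Their calls were lost without any 1 of the hnRNP H1 libraries (adjusted p 0.0667 to 0.0867 for Ctf1 and 0.053 to 0.0792 for Ethe1), and that of Ctf1 also without FLAG RIP 3 (0.0852).

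The most abundant transcripts that were higher included genes of matrix, membrane and lipid enzymes. Col1a1, a chain of collagen I, was at 147340, 108990 and 94388 CPM in hnRNP H1 RIP and 14124, 10717 and 7784 CPM in FLAG RIP (3.43 ± 0.29, adjusted p = 0.00035). Gpnmb, a glycoprotein of phagocytes and repairing tissue, was at 17941, 18980 and 26295 CPM against 1573, 1381 and 2384 CPM. Glul, glutamine synthetase, was at 10899, 14379 and 13341 CPM against 1981, 1317 and 2383 CPM. In each of them the lowest hnRNP H1 library was above the highest FLAG library. B2m, the light chain of MHC class I, was at 10297, 14734 and 14619 CPM against 1314, 1146 and 1557 CPM. Scd2, a fatty acid desaturase, was higher by 3.27 ± 0.26 and Slfn5, a Schlafen family protein, by 3.80 ± 0.25. Rrbp1, a ribosome receptor of the endoplasmic reticulum, was higher by 4.08 ± 0.34 and Zc3h13, a subunit of the RNA adenosine methylation complex, by 3.94 ± 0.37. Sparc, a collagen-binding matrix protein, and Col8a1, a chain of collagen VIII, were higher by 1.72 ± 0.26 and 1.56 ± 0.22.

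Abundant transcripts that were lower included Apod, a lipid-binding protein of injured nerve, at 2166, 2907 and 2712 CPM in hnRNP H1 RIP and 16042, 19521 and 28220 CPM in FLAG RIP (-3.03 ± 0.28, adjusted p = 0.000434). Hba1, a globin chain, was at 787, 303 and 294 CPM against 17474, 4757 and 8378 CPM. Vim, the intermediate filament vimentin, was at 520, 585 and 615 CPM against 1761, 2558 and 2547 CPM. The 2 groups were separate in all of them, and the FLAG libraries spread most in Hba1. S100a11, a calcium-binding protein, was lower at -3.70 ± 0.37, Ifitm1, an interferon-induced membrane protein, at -3.67 ± 0.31, and Tmsb4x, the main thymosin, at -2.81 ± 0.45. Arhgdia, an inhibitor of small GTPases, was at -2.13 ± 0.29, Lyz2, lysozyme of phagocytes, at -1.92 ± 0.28, and Eef2, the elongation factor that moves the ribosome, at -1.47 ± 0.24. Col3a1, a chain of collagen III, was at 1611, 1459 and 1320 CPM against 4671, 2669 and 2770 CPM (-1.20 ± 0.28), and its call was lost without any 1 of the hnRNP H1 libraries (adjusted p 0.0544 to 0.0761).

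**Figure D3:**
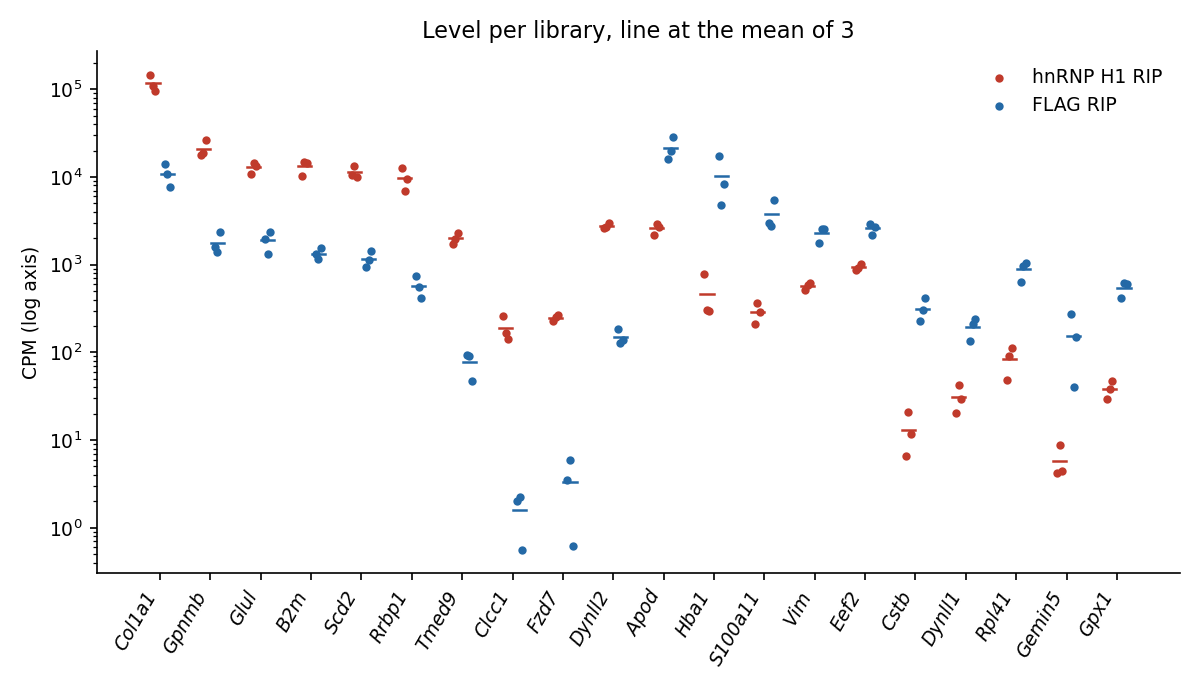
CPM (log axis) in each of the 3 hnRNP H1 RIP and 3 FLAG RIP libraries (points, line at the mean) for 20 genes named in the text. The points of the 2 groups are separate in each gene, as the rule required of any gene picked for its highest or lowest fold change. Col1a1 is at 94388 to 147340 CPM in hnRNP H1 RIP and Hba1 at 294 to 787 CPM.

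The mRNAs of hnRNP H1 and its relatives were not among the calls of the main fit. Hnrnph1 was at 11.2, 15.4 and 15.4 CPM in hnRNP H1 RIP and 18.7, 2.05 and 6.26 CPM in FLAG RIP (0.64 ± 0.96, adjusted p = 0.671), so the groups overlapped. Hnrnph2 was at 121, 206 and 247 CPM against 78.3, 73.4 and 118 CPM (1.09 ± 0.41, adjusted p = 0.0864). Hnrnpf, Hnrnph3 and Ssb, the gene of La, were at 2.12 ± 1.55, 2.12 ± 0.98 and -1.11 ± 0.45 (adjusted p 0.363, 0.156 and 0.111). Hnrnph2 was called higher in edgeR with all 15 RIP libraries in the fit (adjusted p = 0.024) or the length trend removed (0.038), and in DESeq2 (0.0407). Ssb was called lower in edgeR with all 15 RIP libraries (0.0229) or total counts (0.0219). An immunoprecipitation does not change the targeted gene, so these values do not check the antibody.

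In the wider list of hnRNP and related RNA-binding protein genes, 16 of 94 entries were higher and 5 lower [5 to 17 higher and 2 to 5 lower], with a median of 0.66. With total counts as the scaling 8 were higher and 7 lower (median 0.08). Raly, an hnRNP C relative, was at 335, 267 and 328 CPM against 16.4, 44.6 and 13.8 CPM (3.64 ± 0.53), and Khdrbs1, the splicing regulator Sam68, was at 869, 1257 and 1279 CPM against 184, 111 and 58.3 CPM (3.27 ± 0.44). Hnrnpul1, an hnRNP U relative, was lower, at 96, 140 and 165 CPM against 575, 466 and 499 CPM (-1.94 ± 0.32). Of spliceosome and SR protein genes, 15 of 78 were higher and 7 lower [8 to 15 higher and 1 to 9 lower], or 10 and 13 with total counts, which turned the median from 0.21 to -0.39. Prpf19, a ubiquitin ligase of the spliceosome, was at 2466, 2119 and 2755 CPM against 186, 378 and 239 CPM, and Sf3b6, a small SF3b subunit, at 1.46, 11.9 and 5.52 CPM against 123, 55.3 and 96.6 CPM, a call lost without hnRNP H1 RIP 3 (adjusted p = 0.0527).  In mRNA decay, 8 of 42 entries were higher and 3 lower [4 to 8 higher and 1 to 4 lower], or 4 and 7 with total counts, among them Cnot6l, a deadenylase (3.01 ± 0.32). Tnrc6b, a partner of Argonaute in silencing, was higher by 2.71 ± 0.28, and Cstf2t, a polyadenylation factor, was at 247, 292 and 241 CPM against 8.24, 36.4 and 40 CPM.

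Transcripts of the protein synthesis machinery were among the lowest lists. Of 76 tested entries of cytosolic ribosomal proteins 40 were lower and 0 higher [0 higher and 27 to 44 lower], beside 9.71% lower among all entries, and their median was -2.13. Rpl41, the smallest ribosomal protein, was at 48.8, 90.2 and 113 CPM in hnRNP H1 RIP and 634, 970 and 1045 CPM in FLAG RIP (-3.39 ± 0.40, adjusted p = 0.00102). Rpl23 was at 62.6, 161 and 241 CPM against 219, 294 and 208 CPM (-0.63 ± 0.47, adjusted p = 0.373), with overlapping groups and a sign that turned (0.56) when the length trend was removed. Of mitochondrial ribosomal proteins, 12 of 59 were lower and 2 higher [1 to 2 higher and 2 to 14 lower]. Initiation and elongation factors were split, with 16 of 67 lower and 9 higher [5 to 10 higher and 10 to 21 lower]. Eif3l, a subunit of the initiation factor that holds the small ribosomal subunit, was at 7.81, 11.7 and 10.9 CPM against 101, 118 and 97.3 CPM. The helicase Eif4a1 was instead at 857, 1341 and 1340 CPM against 281, 222 and 337 CPM (2.07 ± 0.31), and Eef2k, the kinase that inhibits elongation factor 2, was higher by 2.89 ± 0.42. Of aminoacyl-tRNA synthetases, 7 of 33 were lower and 2 higher [0 to 2 higher and 1 to 8 lower], with Wars, which charges tryptophan, at -2.23 ± 0.38.

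Mitochondrial and metabolic transcripts were low in a similar way. Of 84 entries of the respiratory chain and ATP synthase, 38 were lower and 0 higher [0 to 1 higher and 21 to 42 lower], with a median of -2.42. Atp5e, the epsilon subunit of ATP synthase, was at 8.46, 5.9 and 5.2 CPM against 206, 72.4 and 129 CPM (-4.38 ± 0.58, adjusted p = 0.00147). Antioxidant enzymes had 18 of 47 entries lower and 1 higher [1 to 3 higher and 11 to 21 lower], and glycolysis and the citric acid cycle had 10 of 30 lower and 2 higher [0 to 2 higher and 5 to 14 lower]. Gpx1, a glutathione peroxidase, was at 29.1, 38 and 46.6 CPM against 414, 622 and 606 CPM, and Gapdh, a glycolytic enzyme with many near-identical copies in the genome, at 7.81, 7.41 and 16.2 CPM against 168, 94.4 and 160 CPM. The exception was Prdx6, a peroxiredoxin, at 530, 680 and 840 CPM against 61.4, 123 and 74.1 CPM (2.99 ± 0.37). Mdh1 and Gstm7, a malate dehydrogenase and a glutathione transferase, were lower at -3.76 ± 0.50 and -3.78 ± 0.35. Cholesterol and fatty acid synthesis went the other way, with 8 of 29 entries higher and 1 lower [7 to 10 higher and 1 to 3 lower]. Sc5d, a late enzyme of cholesterol synthesis, was at 789, 469 and 508 CPM against 39.6, 24.2 and 14.6 CPM (4.49 ± 0.47), Idi1, which makes isoprenoid units, was at 225, 175 and 176 CPM against 13.6, 14.2 and 8.41 CPM, and Fasn, fatty acid synthase, was lower at -2.77 ± 0.50.

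In protein turnover, 15 of 45 proteasome entries were lower and 0 higher [0 to 1 higher and 6 to 16 lower]. Psmb2, a core subunit, was at 2.93, 11 and 12.3 CPM against 76.7, 71.7 and 215 CPM (-3.79 ± 0.74), while Psmd11, of the regulatory lid, was at 173, 297 and 217 CPM against 208, 142 and 86.7 CPM and did not pass the test. Chaperones were split, with 9 of 68 higher and 5 lower [5 to 12 higher and 1 to 5 lower]: Pdia3, a disulfide isomerase of the endoplasmic reticulum, was at 1277, 1349 and 2081 CPM against 178, 106 and 186 CPM, and Cct5, a subunit of the cytosolic chaperonin, at 50.9, 38.6 and 44.2 CPM against 236, 251 and 239 CPM. Kctd15, a BTB domain protein, and Nedd4l, a ubiquitin ligase of membrane channels, were higher by 3.97 ± 0.46 and 4.11 ± 0.77.

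In membrane traffic, subunits of the same machine could lie on opposite sides. Tmed9, a cargo receptor between endoplasmic reticulum and Golgi, was at 1713, 1956 and 2295 CPM in hnRNP H1 RIP and 94.5, 90.4 and 46.7 CPM in FLAG RIP (4.69 ± 0.37, adjusted p = 0.000306). Atp6ap1, an accessory subunit of the vesicular proton pump, was at 3317, 3596 and 3618 CPM against 184, 120 and 250 CPM, but Atp6v1f, a core subunit of the same pump, was at 10.7, 34.2 and 54.6 CPM against 346, 211 and 431 CPM. The groups were separate in all of these genes. Of lysosome and proton pump genes 5 of 46 were higher and 8 lower [3 to 6 higher and 4 to 10 lower], and of Rab GTPases and regulators 11 of 98 were higher and 17 lower [5 to 14 higher and 4 to 20 lower]. Rab13, of tight junctions and growth cones, was at 1004, 1125 and 1706 CPM against 170, 144 and 74.2 CPM, and Rab9a, of late endosomes, was lower at -2.60 ± 0.39.

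Lists of cell surface proteins differed in how far they stood from the 11.8% of all entries that were higher. Of guidance cues and their receptors (semaphorins, plexins, ephrins and others) 15 of 52 entries (28.9%) were higher and 0 lower [9 to 20 higher and 0 lower], with a median of 1.58. Sema3g, a secreted semaphorin, was at 49.9, 48.3 and 49.2 CPM with 0, 3 and 1 FLAG reads. Ion pumps and ABC transporters had 17 of 65 higher and 2 lower [7 to 18 higher and 0 to 3 lower], solute carriers 32 of 189 higher and 7 lower [17 to 49 higher and 3 to 9 lower], and voltage-gated channels 9 of 47 higher and 1 lower [3 to 18 higher and 0 to 1 lower]. Abcb1a, a drug efflux pump, was at 426, 127 and 118 CPM against 0.112, 1.95 and 1.44 CPM (7.61 ± 1.06). Cadherins and protocadherins, with 4 of 44 higher and 0 lower [2 to 9 higher and 0 lower], lay near the background. Integrins, also near it, had 3 of 21 higher and 1 lower [2 to 4 higher and 0 to 2 lower], with Itgb3, the beta subunit of the platelet and vascular integrins, at 183, 101 and 126 CPM against 0.224, 0.411 and 2.2 CPM (7.12 ± 0.95). Of myelin protein genes 2 of 17 were higher and 0 lower [2 to 4 higher and 0 to 2 lower], the share of all entries. Pmp2, a lipid carrier of peripheral myelin, was at 2346, 2179 and 1786 CPM against 102, 209 and 122 CPM (3.87 ± 0.35).

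In the extracellular matrix, metalloproteases and their inhibitors had 14 of 40 entries higher and 1 lower [8 to 18 higher and 0 to 2 lower]. Adam10, a protease that sheds surface proteins, was at 322, 441 and 402 CPM against 41.7, 14.4 and 54.5 CPM (3.40 ± 0.51). Of collagen-named entries 7 of 35 were higher and 1 lower [3 to 11 higher and 0 to 1 lower], but Col4a3bp, the one with the lowest adjusted p (3.65 ± 0.25), codes for a ceramide carrier and is no collagen. With total counts as the scaling 4 collagen-named entries were higher and 4 lower. Small leucine-rich proteoglycans, which bind collagen fibrils, had 3 of 6 lower and 1 higher [0 to 1 higher and 2 to 3 lower]. Dcn, decorin, was at 276, 297 and 231 CPM against 2309, 1336 and 2004 CPM (-2.81 ± 0.30), and Lum, lumican, was lower at -2.07 ± 0.31. Mgp, an inhibitor of calcification, was lower at -3.14 ± 0.36. Dag1, dystroglycan, a laminin receptor, was at 1570, 1574 and 1269 CPM against 193, 143 and 75.5 CPM, and Nid1, which links laminin to collagen IV, was higher by 1.38 ± 0.24.

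In the cytoskeleton, close relatives differed. Dynll2, a light chain of dynein, was at 2641, 2662 and 3018 CPM in hnRNP H1 RIP and 186, 129 and 139 CPM in FLAG RIP (adjusted p = 0.000183), while Dynll1, its near-identical paralog by protein, was at 20.3, 42.4 and 29.4 CPM against 134, 211 and 237 CPM (-2.66 ± 0.45, adjusted p = 0.00413). Both pairs of groups were separate, in opposite directions. Of dynein and dynactin genes 4 of 19 were higher and 6 lower [1 to 6 higher and 2 to 7 lower], and of actin and its regulators 7 of 72 higher and 20 lower [4 to 8 higher and 12 to 23 lower]. Arpc1b, of the branching complex Arp2/3, was at 4069, 5780 and 8800 CPM against 717, 669 and 669 CPM, and Tpm2, a tropomyosin, at 17.7, 31 and 16.7 CPM against 687, 280 and 187 CPM. Enah, which extends filaments at growth cone tips, was higher by 4.46 ± 0.73, and Septin2, a filament-forming GTPase, lower at -1.86 ± 0.30. Dpysl3, a microtubule regulator of growth cones, was at 172, 205 and 208 CPM against 10.4, 13.4 and 13.7 CPM (3.96 ± 0.41). Of kinesins 5 of 33 were higher and 2 lower [3 to 8 higher and 0 to 2 lower]; Kif5a, the kinesin heavy chain of neurons, was at 10.2, 16.1 and 28.4 CPM with 2 FLAG reads in all, a ratio of 427 (95% counting interval 117 to 3536).

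Neuronal markers had 4 of 9 entries higher and 0 lower [2 to 4 higher and 0 to 1 lower]. Gap43, a growth cone membrane protein, was at 153, 120 and 123 CPM against 20.6, 14.2 and 8.61 CPM (3.19 ± 0.50), and Nefm, a neurofilament chain, at 181, 206 and 253 CPM against 60.5, 20.3 and 39.4 CPM (2.41 ± 0.47). Both were clear of the FLAG libraries. Stmn2, a tubulin regulator of growing axons, was at 0.651, 0.412 and 3.25 CPM against 49, 9.45 and 0.0513 CPM and did not pass the test (adjusted p = 0.167, or 0.0313 without FLAG RIP 3), with FLAG libraries that spread from the lowest to the highest of the 6 values. In bulk axoplasm, the number of nerve fibres or cells of a type that gave RNA and the RNA each gave cannot be told apart.

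Lists of signalling receptors lay near the background: 6 of 47 entries of receptor tyrosine kinases and growth factors were higher and 1 lower [3 to 9 higher and 0 to 2 lower], 4 of 33 of the TGF-beta and BMP pathway were higher and 2 lower [3 to 7 higher and 0 to 2 lower], and 13 of 99 of G protein subunits and their receptors were higher and 9 lower [6 to 17 higher and 4 to 11 lower]. Single members differed. Acvr1b, an activin receptor, was at 507, 520 and 487 CPM against 21.9, 11.3 and 23.2 CPM (4.74 ± 0.40), and Gdf11, a ligand of this family, was at 690, 473 and 635 CPM against 39.2, 26.8 and 52.7 CPM. Insr, the insulin receptor, was at 584, 390 and 329 CPM against 2.75, 24 and 5.33 CPM. None of these groups overlapped. Of Wnt, Notch and Hedgehog genes 10 of 48 were higher and 2 lower [5 to 10 higher and 0 to 3 lower], with Lrp4, a co-receptor of agrin and Wnt signals, at 4.33 ± 0.40. Calcium sensors and 14-3-3 proteins had 14 of 34 lower and 6 higher [3 to 6 higher and 7 to 16 lower]. Ywhag, the gamma form of 14-3-3, was at 2578, 2673 and 1974 CPM against 334, 319 and 314 CPM (2.90 ± 0.25), and Ywhae, the epsilon form, at 2195, 3754 and 3844 CPM against 2820, 2376 and 3430 CPM (0.18 ± 0.28, adjusted p = 0.68, and -0.39 with total counts as the scaling). Bcl2l2, a survival protein, was higher by 3.77 ± 0.40. Interferon and MHC genes were split, with 12 of 73 higher and 11 lower [5 to 16 higher and 5 to 11 lower], among them RT1-M2, an MHC class I gene with close relatives in the genome, at 7.04 ± 0.92.

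Nuclear protein genes showed no common direction. Transcription factors of the listed families had 17 of 118 higher and 16 lower [12 to 27 higher and 8 to 19 lower], zinc finger genes 22 of 263 higher and 13 lower [8 to 32 higher and 0 to 17 lower], and chromatin enzymes 11 of 125 higher and 6 lower [6 to 17 higher and 1 to 7 lower]. With total counts as the scaling more were lower than higher in each, at 25, 24 and 21 against 14, 14 and 6. Sox9, a regulator of glia and cartilage, was at 49.8, 65.1 and 34.3 CPM against 496, 428 and 352 CPM (-3.10 ± 0.37), and Ets2 was at 596, 517 and 580 CPM against 23.9, 66.9 and 48.4 CPM (3.60 ± 0.43). Histones had 5 of 21 lower and 2 higher [2 higher and 2 to 11 lower], with Hist1h1c, a linker histone, at -3.61 ± 0.48. Ipo7 and Tnpo2, nuclear import receptors, were higher by 3.87 ± 0.38 and 2.98 ± 0.32, and Ccnd1, cyclin D1, by 3.37 ± 0.30.

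**Figure D4:**
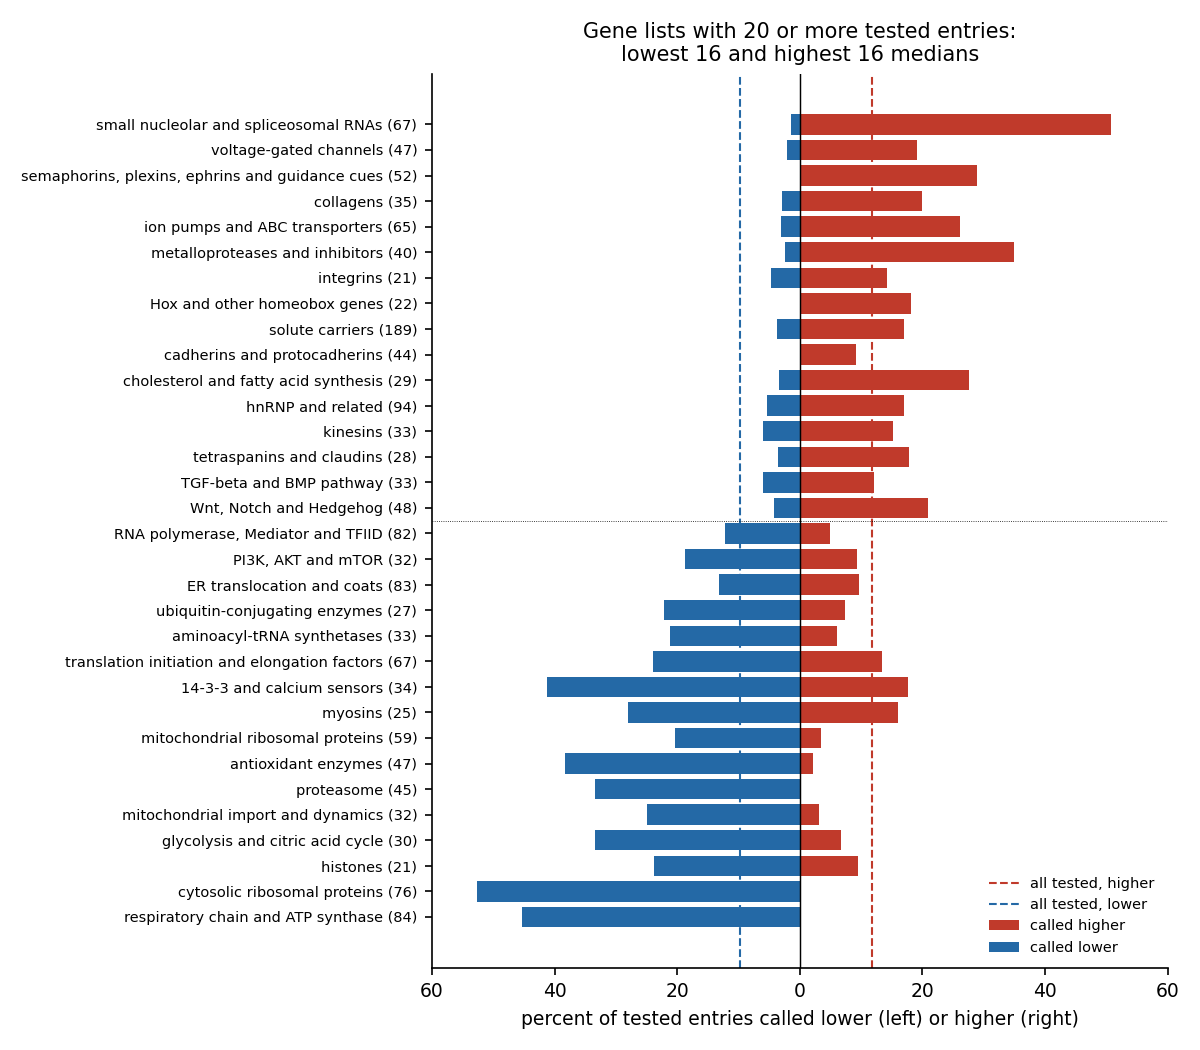
Percent of tested entries called higher (right) or lower (left) in hnRNP H1 RIP against FLAG RIP for gene lists with at least 20 tested entries (number in brackets), showing the 16 lowest and the 16 highest median log2 fold changes. Dashed lines give the shares over all tested entries, 11.8% higher and 9.71% lower; small nucleolar and spliceosomal RNAs stand highest with 34 of 67 higher, and cytosolic ribosomal proteins have the highest share of lower calls, 40 of 76.

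Of 12003 tested entries 8157 were in none of the 76 lists. Of these, 908 were higher and 700 lower, shares near the 11.8% and 9.71% of all tested entries. The families in this paragraph were picked after their values were seen, and are described only. GalNAc transferases, which start mucin-type sugar chains in the Golgi, had 4 of 10 entries higher and 0 lower with a median of 3.75. Galnt10 was at 333, 312 and 327 CPM against 75.1, 30.3 and 49.9 CPM, and Galnt1 at 205, 260 and 232 CPM against 25, 17.7 and 1.23 CPM. C-type lectins had 6 of 19 higher and 2 lower, led in abundance by Clec2g at 4943, 3959 and 4776 CPM against 170, 166 and 255 CPM (4.53 ± 0.30). Cytochrome P450 genes outside the lists had 4 of 12 higher and 0 lower, with Cyp26b1, which degrades retinoic acid, at 282, 282 and 264 CPM against 48.5, 44.9 and 38.6 CPM. Aldehyde dehydrogenases had 4 of 13 lower and 1 higher; Aldh1a1, which makes retinoic acid, was at 45, 54.5 and 32.3 CPM against 563, 287 and 222 CPM (-3.02 ± 0.45). Subunits of the anaphase-promoting complex, a ubiquitin ligase of the cell cycle, had 4 of 10 lower and 0 higher, with Anapc13 at 7.97, 14.3 and 6.34 CPM against 173, 117 and 126 CPM.

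Further abundant genes outside the lists, also chosen after their values were seen, included membrane and secretory genes that were higher. Emp1, an epithelial membrane protein, was at 6628, 7607 and 7388 CPM against 370, 233 and 376 CPM (4.47 ± 0.29), and Serpinh1, the collagen chaperone HSP47, at 2861, 3207 and 3131 CPM against 121, 57.4 and 92.5 CPM (5.08 ± 0.35). Aqp1, a water channel, Sdc4, a syndecan, and Gja1, connexin 43, were higher by 4.56 ± 0.44, 4.36 ± 0.44 and 3.02 ± 0.33. Among those that were lower, Ucp2, a mitochondrial carrier, was at 188, 315 and 277 CPM against 1251, 1730 and 2330 CPM (-2.77 ± 0.34), and Nfe2l2, the oxidative stress factor NRF2, at 39.7, 42.8 and 31.2 CPM against 324, 392 and 573 CPM (-3.50 ± 0.37). Uba1, the ubiquitin-activating enzyme, was at -2.60 ± 0.37.

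The table lists several transcript entries for some genes, and these did not always agree. Of 616 symbols with 2 or more tested entries, 24 had 2 or more higher entries and none lower, 11 had 2 or more lower and none higher, and 9 had entries called in both directions. Rab7a, a GTPase of late endosomes, had an entry of 2075 bases at 219 ± 14.7 CPM in hnRNP H1 RIP and 1203 ± 263 CPM in FLAG RIP (mean ± SD, n = 3; -2.46 ± 0.28, adjusted p = 0.000887 in edgeR) and an entry of 759 bases at 22.4 ± 0.85 CPM with 0 reads in every FLAG library. Gnas, the stimulatory G protein alpha subunit, had an entry of 1116 bases lower at -2.68 ± 0.29 and another of 1637 bases higher by 2.37 ± 0.58. Entries of a gene can share exons, and the labels do not give how reads were divided between them. Values of a gene with several entries are those of its most abundant entry unless stated.

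The difference from FLAG RIP moved with transcript length. In the shortest of 10 equal groups of tested entries, with a median of 541 bases, 11.6% were higher and 20.6% lower, and the median log2 fold change was -1.15. In the longest group, with a median of 6322 bases, 17.3% were higher and 6.08% lower, and the median was 0.36. The lists that were low were mostly of short transcripts: the median length was 556 bases for cytosolic ribosomal proteins and 739.5 for the respiratory chain, beside 2280 over all tested entries. With the trend removed, the entries called lower went from 40 to 22 for cytosolic ribosomal proteins (median -2.13 to -1.12), from 38 to 23 for the respiratory chain (-2.42 to -1.48), from 12 to 3 for mitochondrial ribosomal proteins and from 8 to 3 for mitochondrial import. Other low lists changed less. Lower calls went from 18 to 14 for antioxidant enzymes, from 15 to 11 for the proteasome and from 16 to 15 for initiation and elongation factors. They rose from 10 to 11 for glycolysis and the citric acid cycle, from 14 to 16 for 14-3-3 and calcium sensors, and from 7 to 8 for aminoacyl-tRNA synthetases. The small RNA genes were short as well and lay on the other side.

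**Figure D5:**
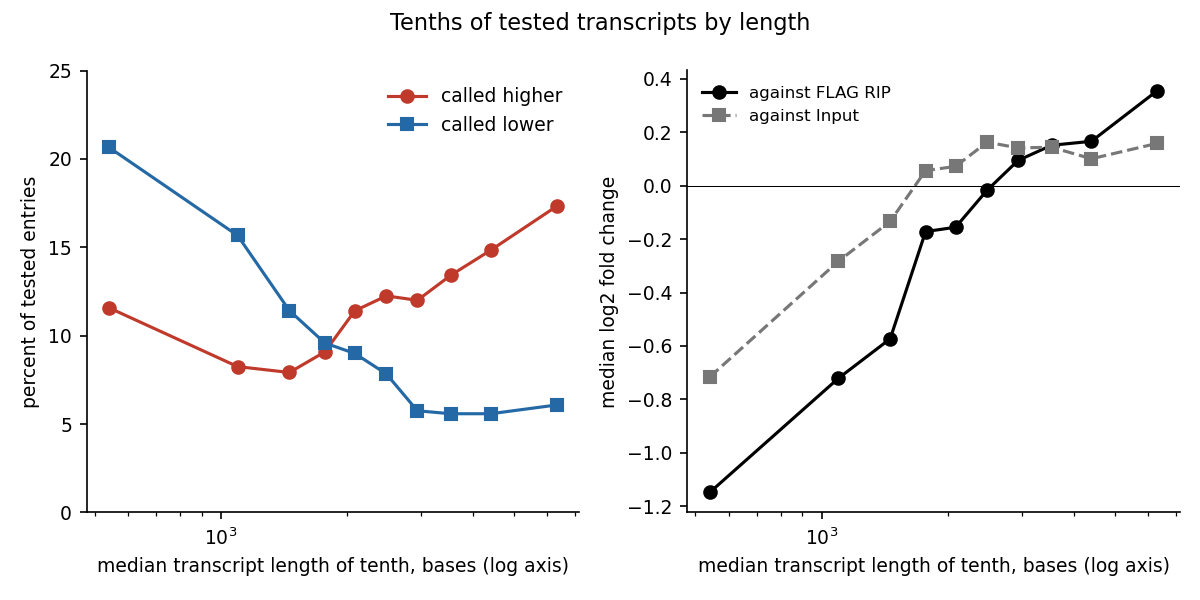
Left, percent of tested entries called higher or lower in hnRNP H1 RIP against FLAG RIP for 10 equal groups of transcripts by length (median length on a log axis); right, median log2 fold change of each group against FLAG RIP and against Input. Against FLAG RIP the median runs from -1.15 in the shortest to 0.36 in the longest group, and against Input it stays between -0.72 and 0.16.

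In comparison with Input, which shares the hnRNP H1 libraries with the main comparison, 4359 of 12053 entries (36.2%) differed, 2439 higher (20.2%) and 1920 lower (15.9%). With total counts as the scaling 1691 were higher and 3330 lower. Values of the named genes stand side by side as follows. Gpnmb was higher by 3.57 against FLAG RIP and by 3.32 ± 0.21 against Input, and Mir675 by 5.36 and 3.92 ± 0.32. Col1a1 was higher by 3.43 and 1.31 ± 0.27. Sparc was higher against FLAG RIP but not called against Input (-0.28 ± 0.20, adjusted p = 0.286 in edgeR), and Col8a1 was lower against Input at -0.73 ± 0.17. Among the genes that were low, Rpl41 was at -3.39 and -3.46 ± 0.30, and Apod at -3.03 and -2.25 ± 0.20. The list median was -2.13 against FLAG RIP and -2.81 against Input for cytosolic ribosomal proteins, 1.58 and 0.72 for guidance genes, and 4.95 and 1.96 for small nucleolar and spliceosomal RNAs. The integrin list had a median of 1.22 against FLAG RIP and -0.53 against Input.

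Against hnRNP F RIP, with an antibody to a close relative, 0 of 11718 entries (0%) passed the same edgeR test. At an unadjusted p under 0.05 there were 1223 (10.4%), and DESeq2 called 55 higher and 86 lower. With the replicate number as a block in edgeR, 7 were higher and 13 lower. A p above the threshold does not show that the 2 proteins brought down the same RNA. Log2 fold changes of hnRNP H1 against hnRNP F RIP were 0.47 ± 0.25 for Col1a1, -0.27 ± 0.33 for Gpnmb, -0.10 ± 0.41 for Mir675 and -0.03 ± 0.33 for Clcc1. They were -1.19 ± 0.40 for Rpl41 and -1.88 ± 0.47 for Sh3bgrl3, and the median over cytosolic ribosomal proteins was -1.10.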

How the data were processed

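RNA from axoplasm immunoprecipitates was sequenced. The deposited table gives, per transcript entry and library, read counts to which the authors added 1 (the lowest value is 1 in 17 of 18 libraries); 1 was subtracted here. FPKM values, deposited per the file headers, served only to derive transcript length. Log2 fold changes and p-value (FDR) columns of the authors were not used in any result. CASAVA 1.8.2 and edgeR were used by the authors, per the submitters' processing notes. The aligner, the read counter and the build of the genome are not stated in the sources used here. In La/SSB RIP 1 every entry has 10 or more reads, so entries may have been selected on that library.

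Counts were tested with edgeR 4.0.16 (limma 3.58.1, R 4.3.3): filterByExpr (minimum count 10, minimum total 15), TMM, quasi-likelihood F-test, two-sided, Benjamini-Hochberg adjusted p under 0.05, with the 6 compared libraries in each fit. Fold changes are ± SE, 3 libraries against 3. Bounds use 3 reads over the FLAG group; intervals are exact 95% counting intervals and, like the bounds, cover counting error only. The steps were tested on simulated counts, with far fewer changed entries than were called in the data. For hnRNP H1 against FLAG RIP, a simulated log2 change of 1 was called in 0% of 93 changed entries. A log2 change of 2 was called in 4.21% of 95. Against hnRNP F RIP these shares were 7.14% of 98 and 45.2% of 93, and 7.55% of the calls were false. An entry that was not called can therefore hold a change of this size.

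The comparison, the 76 lists and the rule for named genes were chosen with earlier results of these data known. The rule took the 12 highest and 12 lowest fold changes among called transcripts with 10 or more reads in every library and groups apart, the 10 most abundant higher and lower calls with a log2 change of 1 or more, and up to 3 called members per list and direction with the most abundant uncalled one. List genes are named in part, mostly those whose calls held when a library was left out. 19 of 20 symbols turned into dates by a spreadsheet were restored through gene IDs. Guanine content of whole transcripts was not analysed here. Alternatives were other scalings (RLE, total counts), DESeq2 1.42.0, limma voom with weights per group, no filter, all RIP libraries in the fit, a replicate block, removal of the length trend, entries summed by symbol, the added 1 kept, FLAG RIP 2 as the only FLAG library, and each library left out.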

Additional observations from a re-analysis of the deposited data

How the results depend on the processing

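Against FLAG RIP, 4734 entries were called with all 15 RIP libraries in the fit, beside 2583. Leaving out 1 library gave 1187 to 3083 calls, with 1379, 1187 and 1188 without hnRNP H1 RIP 1, 2 and 3. Against hnRNP F RIP the count of 0 became 141 with DESeq2, 20 with a replicate block, 5 with voom, 1 with total counts and 0 to 1 on leaving out a library. The block left 1327 higher and 838 lower calls against FLAG RIP. Same-numbered libraries were not shown to be pairs: each hnRNP H1 library correlated best with its own number in every group, but at 0.036 to 0.065 with FLAG RIP, 0.068 to 0.119 with hnRNP F RIP and 0.038 to 0.079 with Input, and not every pair of a comparison was over 0.1. Under the block the calls of Ctf1 and RNase_MRP were lost (adjusted p 0.0537 and 0.108). Of 133 called genes named in the text, 124 kept their call under every alternative, 9 lost it under at least 1, and 0 changed sign. Of those 9, Ctf1 and Ethe1 had no adjusted p from DESeq2. List genes were mostly named because their calls held when a library was left out. The share of named genes that kept their call therefore does not describe all called entries. Of 10 named genes that were not called, 4 stayed so with the same sign under every alternative and 6 did not. Rpl23 turned to 0.56 with the length trend removed, and Ywhae to -0.39 with total counts. Hnrnph2, Ssb, Stmn2 and Mir186 were called under at least 1 alternative. The causes were not tested. The FLAG libraries spread more than the hnRNP H1 libraries, and 3 reads correspond to 0.179 to 0.420 CPM in them, so a transcript that was not called may still differ.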
